A study of Mus musculus with 2 samples.

Results

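Neat1, Malat1, Tug1, Mir99ahg, Particl, Phxr4 and Gas5 are long non-coding RNAs, and their levels were compared between cultured mouse urogenital sinus mesenchyme (UGM) cells given testosterone and estradiol and the same kind of cells left untreated. UGM is the fetal stroma around the urogenital sinus, the structure from which the prostate buds. Members were the genes with these 7 symbols, out of 18161 genes named on the array, and every probe set that named 1 of them alone was taken, 24 in all. The RefSeq gene table classes all 7 as long non-coding RNA. They were picked from these same arrays with their differences in view, so every member value here is a description.

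The T+E2 cells were male C57BL/6 UGM cells of day 16 that received testosterone (12 nM) and estradiol-17β (120 pM) for 72 h in RPMI medium with 5% charcoal-stripped serum, from which steroids are depleted, and 5 µg/ml of the antibiotic Plasmocin. The untreated cells had the same strain, sex, age, medium and duration with no added hormone. Sample titles state 24 h, but the characteristics and protocols state 72 h. Cell density before treatment is described as near confluency for the T+E2 cells and as confluency for the untreated cells, whereas the growth protocol gives 80% for both. Each group had 1 array, from 1 culture as far as the labels say, so no difference below could be set against a spread between cultures and no p-value was computed.

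Neat1 is the RNA scaffold of paraspeckles, nuclear bodies that hold RNA-binding proteins such as NONO and SFPQ. It is made as a short and a long isoform, and the long one builds the body. Malat1, its neighbour on the chromosome, is one of the most abundant nuclear RNAs and gathers in nuclear speckles, where splicing factors are stored. Its end is cut by RNase P, which releases a small tRNA-like RNA. Gas5 carries small nucleolar RNAs (snoRNAs) in its introns, and its spliced RNA begins with a tract of pyrimidines like those of ribosomal protein mRNAs. In human cells that RNA is also known to bind the glucocorticoid receptor. Tug1 is a widely expressed RNA first found as a gene upregulated by taurine in the retina. The arrays read cDNA made from total RNA, so the place of these RNAs within the cell was not measured.

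The promoter windows of 3 genes are shown because their genes differed in opposite ways or unevenly between the arrays: Malat1 (lower with T+E2), Tug1 (slightly higher) and Gas5 (split between its probe sets). Each runs from 250 bases before to 50 bases after an annotated start, 5′ to 3′ on the gene's strand, from RefSeq on GRCm38.p6. Capitals mark any match to a searched motif. The windows lie at chr19:5802623-5802922 (minus strand) for Malat1, chr11:3648765-3649064 (minus strand) for Tug1 and chr1:161034916-161035215 (plus strand) for the downstream of the annotated Gas5 starts.
Malat1: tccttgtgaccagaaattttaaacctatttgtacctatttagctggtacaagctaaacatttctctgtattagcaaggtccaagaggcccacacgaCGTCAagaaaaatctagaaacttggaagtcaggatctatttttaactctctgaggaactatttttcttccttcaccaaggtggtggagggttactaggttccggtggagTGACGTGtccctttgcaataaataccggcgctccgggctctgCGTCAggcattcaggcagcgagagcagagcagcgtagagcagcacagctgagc
Tug1: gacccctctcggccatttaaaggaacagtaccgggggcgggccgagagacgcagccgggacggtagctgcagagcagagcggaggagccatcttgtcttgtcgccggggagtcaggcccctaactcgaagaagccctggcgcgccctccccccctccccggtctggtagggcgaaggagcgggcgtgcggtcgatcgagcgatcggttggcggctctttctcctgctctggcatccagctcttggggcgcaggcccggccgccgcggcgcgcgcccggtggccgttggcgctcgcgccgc
Gas5: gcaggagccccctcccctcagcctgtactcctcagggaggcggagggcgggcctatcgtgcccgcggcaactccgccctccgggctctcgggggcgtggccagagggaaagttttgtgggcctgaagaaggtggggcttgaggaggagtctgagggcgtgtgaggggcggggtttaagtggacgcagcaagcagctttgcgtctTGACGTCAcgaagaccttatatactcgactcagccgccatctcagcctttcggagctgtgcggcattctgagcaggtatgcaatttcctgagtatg

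RefSeq windows were found for 6 of the 7 members, and Neat1 had none in the table. The 7 motifs searched on both strands were AGAACA (a single arm of the androgen and glucocorticoid receptor element), AGGTCA (likewise of the estrogen receptor element), TGANTCA (AP-1), TGACG (likewise of the cyclic AMP response element), ACGTG (core of the hypoxia response element), TATAAA (a core promoter element) and the CArG box of serum response factor. The Malat1 window held 3 matches to TGACG and 1 to ACGTG, which overlaps one of them. The Gas5 window held 2 overlapping matches to TGACG, on opposite strands, which together read TGACGTCA, both arms of the element joined. The share of windows with both arms joined was not counted, and the next one is for TGACG alone. TGACG was present in 20.8% of all 32851 promoter windows of this length. ACGTG was present in 19.6% of them. The Tug1 window matched none of the 7 motifs. TGACG and ACGTG were also absent from the windows of Mir99ahg, Particl and Phxr4, all lower with T+E2. They were absent from the other Gas5 window too. Any link of a motif to the differences was not tested. AGAACA, present in 6233 of all windows, was in none of the 7 windows of members, and AGGTCA, present in 5340, was in that of Mir99ahg alone.

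Mir99ahg is named for a microRNA cluster made of miR-99a, let-7c and miR-125b. Mature microRNAs were not measured on these arrays. The sequences are shown to identify the cluster, with the seed (bases 2 to 8) in capitals, and the 3 seeds differ from each other. In the RefSeq table the Mir99ahg span does not include the 3 microRNA genes, which follow it on chromosome 16 at chr16:77598940-77598961, chr16:77599672-77599693 and chr16:77646279-77646300 (all plus strand, GRCm38.p6).
mmu-miR-99a-5p: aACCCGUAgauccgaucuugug
mmu-let-7c-5p: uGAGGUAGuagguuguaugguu
mmu-miR-125b-5p: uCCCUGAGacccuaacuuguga

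Of the 7 members, 5 were at least 2-fold lower with T+E2, none was at least 2-fold higher, and Tug1 and Gas5 lay between. All values are GCRMA intensities, a background-corrected and normalized brightness of each probe set, and differences are log2 of T+E2 minus log2 of untreated. A probe set counted as measured where at least 1 array reached an intensity of 32 (log2 of 5), and the measured probe set with the highest mean gave the gene's value. Among all 10259 measured genes, 4.01% were at least 2-fold lower and 4.96% at least 2-fold higher. Those shares come from 411 lower and 509 higher genes, and the balance turned to 520 lower and 406 higher with differences centred on the median, to 518 and 390 with a trend on level removed, and to 432 and 304 with a trend on genomic span removed. Since the members were picked with these differences known, nothing is read from their excess over those shares. The median over the 7 gene values was -1.74, beside 0.07 over all measured genes. In a culture, fewer cells that make an RNA and less of it per cell cannot be told apart.

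Neat1 was measured by 1 of its 2 probe sets. Probe set 1428083_at had an intensity of 2864 in T+E2 cells, against 9536 in untreated cells, a difference of -1.74 (3.33-fold lower). Both arrays were far above the floor there. The other, 1442881_at, had 4.29 in T+E2 cells and 4.38 in untreated cells, under the floor on both arrays, so no fold is given for it. The annotation does not say which isoform or which stretch of the RNA either probe set matches, for Neat1 or for any other member, so values could not be set against position along the transcript.

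Malat1 had 7 probe sets, all of them measured on both arrays and all lower with T+E2. The brightest, 1418188_a_at, had 8148 in T+E2 cells and 18742 in untreated cells, a difference of -1.20 (2.30-fold lower). The next in brightness were close to it in size of change. Probe set 1418189_s_at had 5219 in T+E2 cells and 13191 in untreated cells (-1.34), and 1429060_at had 4952 in T+E2 cells and 13679 in untreated cells (-1.47). The first of these and the brightest share a source sequence in the annotation, so they are not separate readings.

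Differences were larger at 3 other Malat1 probe sets. Probe set 1427285_s_at had 727 in T+E2 cells and 2838 in untreated cells (-1.97). Probe set 1452378_at had 601 in T+E2 cells and 2414 in untreated cells (-2.01), and 1438403_s_at had 679 in T+E2 cells and 2949 in untreated cells (-2.12). The first 2 of these also share a source sequence. The seventh, 1436202_at, had 3176 in T+E2 cells and 3889 in untreated cells (-0.29) and was the only one under 2-fold. The spread from lowest to highest difference was 1.83, and 94.9% of the 4538 genes with at least 2 measured probe sets had a smaller one, with a median of 0.37.

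Tug1 differed in the other direction, by less than 2-fold, at each of its 3 probe sets. Probe set 1456398_at had 10949 in T+E2 cells and 8916 in untreated cells (0.30, or 1.23-fold higher). Probe set 1415708_at had 5364 in T+E2 cells and 4063 in untreated cells (0.40), and 1426771_at had 3030 in T+E2 cells and 2420 in untreated cells (0.32). These 3 differences lay within 0.10 of each other. Probe sets 1415708_at and 1426771_at share a source sequence in the annotation, so they are not separate readings.

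Gas5 gave 2 kinds of reading. Probe set 1419291_x_at, the brightest and hence the gene value, had 24205 in T+E2 cells and 24691 in untreated cells, a difference of -0.03, which turned to 0.16 with the trend on genomic span removed. Probe set 1449410_a_at had 19698 in T+E2 cells and 20907 in untreated cells (-0.09). These 2 were nearly level between the arrays. The ending _x_at marks probe sets that can pick up other transcripts. With _x_at and _s_at probe sets left out, the Gas5 gene value was -0.09.

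The remaining Gas5 probe sets were lower with T+E2. Probe set 1436222_at had 1496 in T+E2 cells and 4185 in untreated cells (-1.48), and 1424843_a_at had 648 in T+E2 cells and 2266 in untreated cells (-1.81). Another, 1455904_at, names both Gas5 and Snord47, a snoRNA encoded within the Gas5 gene, and stands outside the membership rule. It had 992 in T+E2 cells and 3777 in untreated cells (-1.93). Gas5 therefore passed the 2-fold mark or not according to the probe set read, and its median over 4 probe sets was -0.78. In the RefSeq table Gas5 also overlaps Zbtb37, whose own probe set was under the floor, at 20.4 in T+E2 cells and 24.4 in untreated cells.

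**Figure D1:**
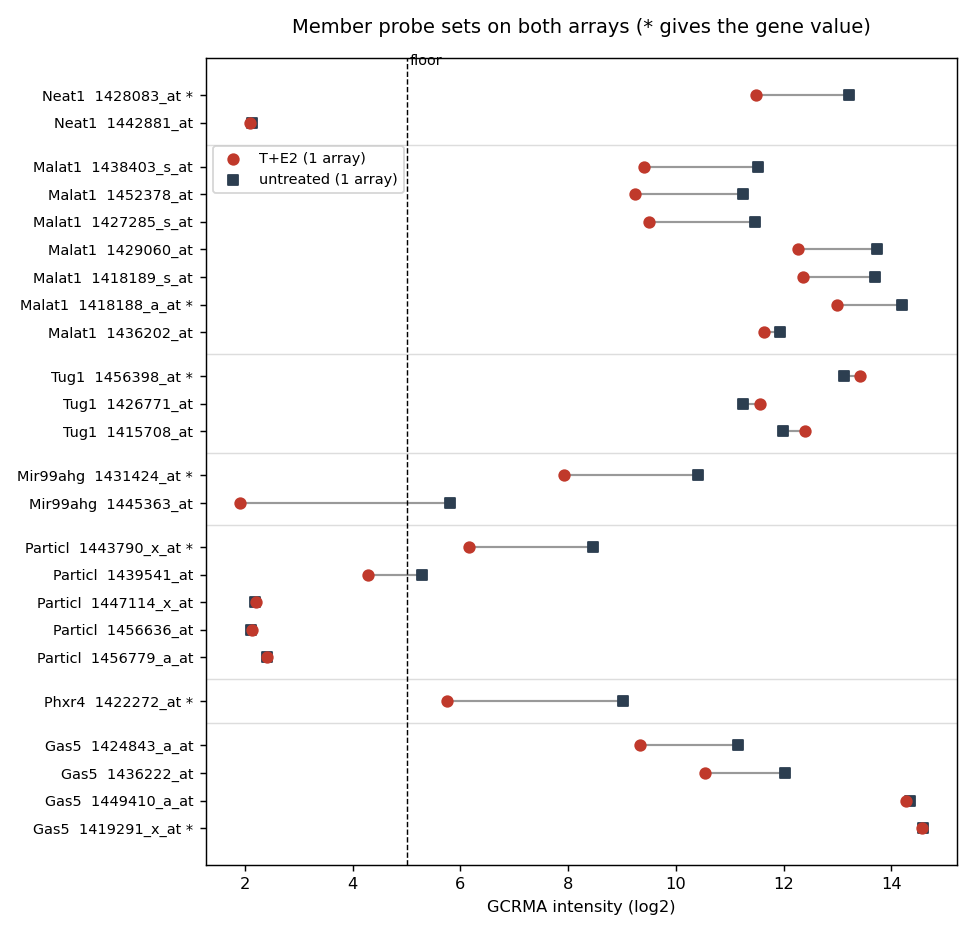
GCRMA intensity on a log2 axis for the 24 member probe sets, with T+E2 (circle) and untreated (square) joined by a line, 1 array each, and the floor at 5 as a dashed line. All 7 Malat1 probe sets shift left with T+E2, the 3 of Tug1 shift right, and the 4 of Gas5 split into 2 that hardly differ and 2 that differ by -1.48 and -1.81.

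The 3 less studied members lay at lower intensities, and each gene value rested on 1 probe set. Phxr4, which had a single probe set, had 53.9 in T+E2 cells and 519 in untreated cells (-3.27, or 9.62-fold lower). In the RefSeq table Phxr4 overlaps the Notch coactivator gene Maml2, whose brightest probe set was at background on both arrays, at 4.39 in T+E2 cells and 4.36 in untreated cells. Mir99ahg probe set 1431424_at had 244 in T+E2 cells and 1352 in untreated cells (-2.47, or 5.54-fold lower). Its other probe set, 1445363_at, had 3.75 in T+E2 cells, under the floor, and 55.6 in untreated cells, so it was at least 1.74-fold lower.

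Particl takes its name from the promoter of MAT2A, a methionine cycle gene, and in human cells it is known as a radiation-responsive RNA. In the RefSeq table Particl overlaps Mat2a, which had no probe set that named it alone. Probe set 1443790_x_at had 71.6 in T+E2 cells and 352 in untreated cells (-2.30, or 4.92-fold lower). The ending _x_at marks probe sets that can pick up other transcripts. Without such probe sets Particl rested on 1439541_at, which had 19.4 in T+E2 cells, under the floor, and 39.2 in untreated cells, so it was at least 1.23-fold lower and no longer passed 2-fold. The other 3 Particl probe sets lay between 4.34 and 5.33 on both arrays, under the floor.

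Over all members, 20 of 24 probe sets were measured, 17 of them lower with T+E2 and 3 higher, the 3 of Tug1. Of the 20, 12 were at least 2-fold lower and 0 at least 2-fold higher, beside 5.49% and 6.28% of the 17674 measured probe sets that name 1 gene. Probe sets of 1 gene read the same RNA and are not replicates. Of the 12, 6 came from Malat1.

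Long non-coding RNAs as a class were lower with T+E2. Of 227 measured long non-coding RNAs of the RefSeq table, 66 (29.1%) were at least 2-fold lower and 6 (2.64%) at least 2-fold higher, with a median of -0.50 and 177 below 0. Of the 66, 5 reached the floor on the untreated array alone, and among the 204 measured on both arrays 61 (29.9%) were at least 2-fold lower, beside 3.27% of 9758 protein-coding genes. Without the members, 61 of 220 (27.7%) were at least 2-fold lower and 2.73% at least 2-fold higher, with a median of -0.49. Of 9987 measured protein-coding genes, 338 (3.38%) were at least 2-fold lower and 5.02% at least 2-fold higher, with a median of 0.09. The floor matters to this count: with no floor, 1461 long non-coding RNAs entered, most of them near background, and 6.57% were at least 2-fold lower, beside 2.82% of all genes.

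**Figure D2:**
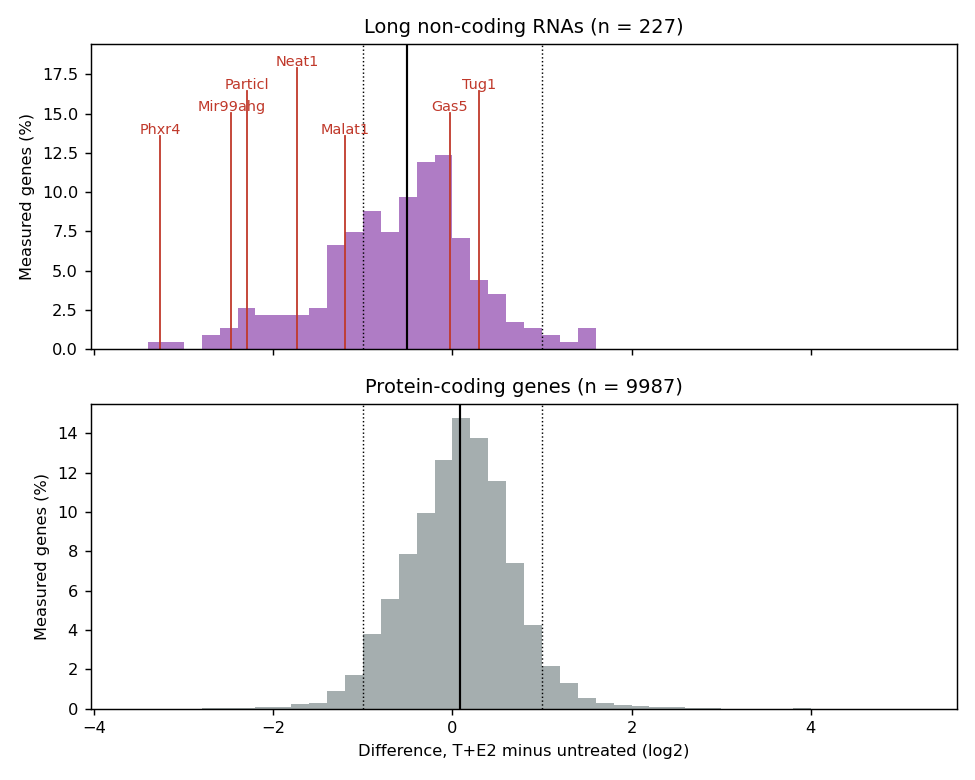
Share of measured genes (%) by log2 difference, T+E2 minus untreated, for 227 long non-coding RNAs (top, the 7 members marked in red) and 9987 protein-coding genes (bottom). The solid line is the median, at -0.50 and 0.09, and dotted lines mark 2-fold.

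Without the members, the share at least 2-fold lower was larger for long non-coding RNAs than for protein-coding genes in 5 of 5 bins of genomic span and in 4 of 5 bins of level, the exception being the brightest bin, with 0 of 13, where the medians were -0.38 for long non-coding RNAs and 0.02 for protein-coding genes. In the shortest 20% of genomic spans, which holds Gas5, Malat1, Particl and Phxr4, 30 of the other 125 long non-coding RNAs (24%) and 133 of 1901 protein-coding genes were at least 2-fold lower. In the longest 20%, which holds Mir99ahg, the counts were 4 of the other 14 (28.6%) and 25 of 2035 (1.23%). In the brightest 20% of genes, which holds Neat1, Malat1, Gas5 and Tug1, 2 of 17 long non-coding RNAs were at least 2-fold lower, and these were Neat1 and Malat1, both chosen for their differences. At that level 10 of 2031 protein-coding genes (0.492%) were.

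The other bright long non-coding RNAs, named after their values were seen, differed less. Morrbid stood at -0.91 with probe sets on opposite sides, and the snoRNA host Snhg8 at -0.68. At the upper end were Norad, which binds Pumilio proteins (0.41), Tug1 (0.30) and Oip5os1 (0.09). Neat1 and Malat1 therefore lay below every other bright long non-coding RNA, as their choice for the size of their differences would place them.

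**Figure D3:**
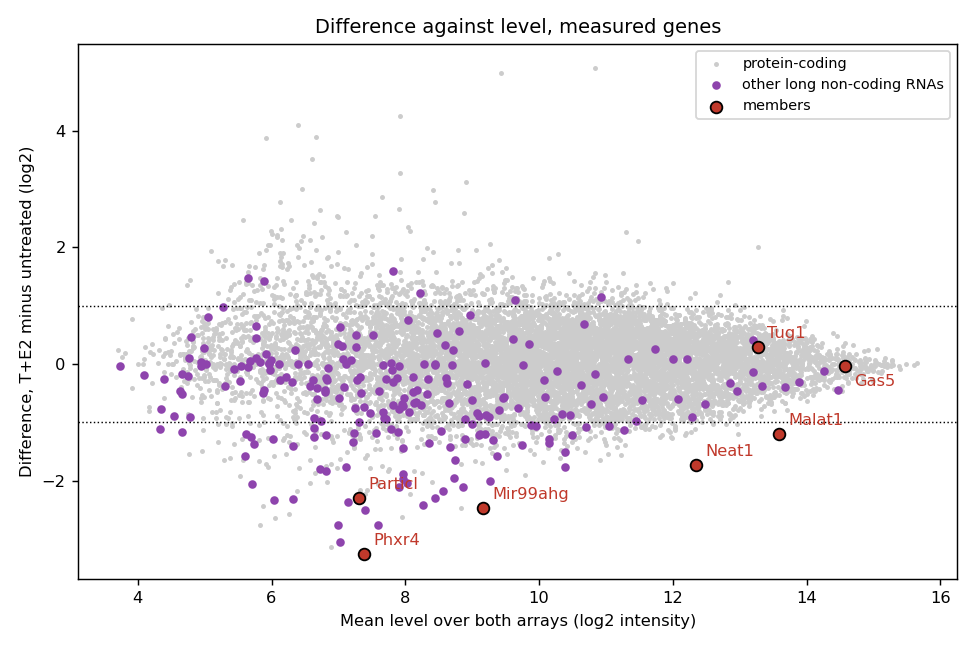
Log2 difference, T+E2 minus untreated, against the mean log2 intensity over both arrays for measured protein-coding genes (grey), other long non-coding RNAs (purple) and the 7 members (red). Dotted lines mark 2-fold. Neat1 (-1.74) and Malat1 (-1.20) lie below the other purple points at their level, while Gas5 and Tug1 lie near 0.

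Other measured quantities are given here, some lower with T+E2 and some not. Their part in the lower long non-coding RNAs was not tested. The 3 control probe sets for 18S ribosomal RNA, which has no poly(A) tail, were lower with T+E2, at differences of -1.58 to -0.62. The 18 hybridization spike probe sets differed by -0.25 to 0.09. Probe sets for the 5′, middle and 3′ parts of beta-actin differed by 0.22 to 0.29 and those of Gapdh by 0.19 to 0.26, with 5′ above 3′ by 0.07 and 0.08, while for 18S ribosomal RNA the 5′ difference lay below the 3′ one, by -0.42. Of 1685 measured probe sets that the annotation does not list, 28.3% were at least 2-fold lower and 6.11% at least 2-fold higher, with a median of -0.21. The B1 repeat control stood at -0.46 and the brighter of the B2 controls at -0.01.

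Further long non-coding RNAs were drawn from a list of known ones. Of 20 measured, 7 passed 2-fold downward and 0 upward, with a median of -0.89 and 17 below 0, in a class of which 29.1% passed downward. Kcnq1ot1, the silencing RNA of the imprinted Kcnq1 cluster, had 157 in T+E2 cells and 771 in untreated cells (-2.29). Airn, the imprinted antisense RNA of Igf2r, had 789 in T+E2 cells and 2250 in untreated cells (-1.51), with 4 probe sets on the same side. Rab26os stood at -2.10 and Bvht, known in mouse for heart lineage commitment, at -1.14. With no floor the list median was -0.01, since RNAs near background then entered.

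Gas5 belongs to the snoRNA host RNAs. In the list of snoRNA hosts and mRNAs of the translation machinery that share its pyrimidine start, the 11 measured non-coding hosts lay below 0, with a median of -0.46, and 4 were at least 2-fold lower, beside 29.1% of all measured long non-coding RNAs. The list does not hold every host: over all 14 measured RNAs with a Snhg name or named Zfas1, 13 lay below 0 and 5 were at least 2-fold lower, while Snhg14 stood at 0.69 with probe sets on opposite sides. Snhg3 had 56.6 in T+E2 cells and 197 in untreated cells (-1.80). Snhg7 had 724 in T+E2 cells and 2463 in untreated cells (-1.77). Snhg4 stood at -1.22 and Snhg10, with 3 probe sets on the same side, at -1.07. Of the 18 measured mRNAs of this list, 0 passed 2-fold in either direction, beside 4.01% lower and 4.96% higher among all measured genes. Their median was -0.02. The split is by RNA class, and the mRNAs were not sorted by whether their genes carry snoRNAs too. Whether the non-coding hosts and the mRNAs differ was not tested. Whether these probe sets read spliced or unspliced RNA is not stated in the annotation.

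Genes of proteins that assemble in paraspeckles and nuclear speckles were taken next. Of 26 measured paraspeckle protein genes, 0 passed 2-fold in either direction, beside 4.01% lower and 4.96% higher among all measured genes. Their median was 0.04 and turned to -0.04 with centring. Of these genes, 13 lay above 0 and 13 below. The lowest were Rbm7 (-0.85) and Pspc1 (-0.75), which encodes a core paraspeckle protein, each with 1 measured probe set. Nono (0.28) and Sfpq (0.33), whose proteins are named above, lay on the other side of 0, each with probe sets that disagreed in sign. Of 30 measured nuclear speckle genes, 2 (6.67%) passed 2-fold on the low side, beside 4.01% of all measured genes, and 0 on the high side, with a median of -0.21. Those 2 were the SR splicing factor gene Srsf2 (-1.20), with 3 probe sets that disagreed in sign, and the SR protein kinase gene Clk4 (-1.17).

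Of 33 measured genes of nuclear RNA decay and RNA end processing, 2 (6.06%) passed 2-fold downward, near the 4.01% of all measured genes, and 0 upward, with a median of -0.25. They were Pop5 (-1.05), which encodes a subunit of RNase P, and the exosome subunit gene Exosc7 (-1.01). Among 12 measured genes of transcription factors and cofactors linked to Neat1 expression in other cells, 3 passed 2-fold upward, beside 4.96% of all measured genes, and 0 downward, with a median of 0.42. The hypoxia-inducible factor gene Epas1 stood at 2.35, the early growth response gene Egr1 at 2.02 and Runx1 at 1.41. All these lists were assembled with earlier results of these arrays known.

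**Figure D4:**
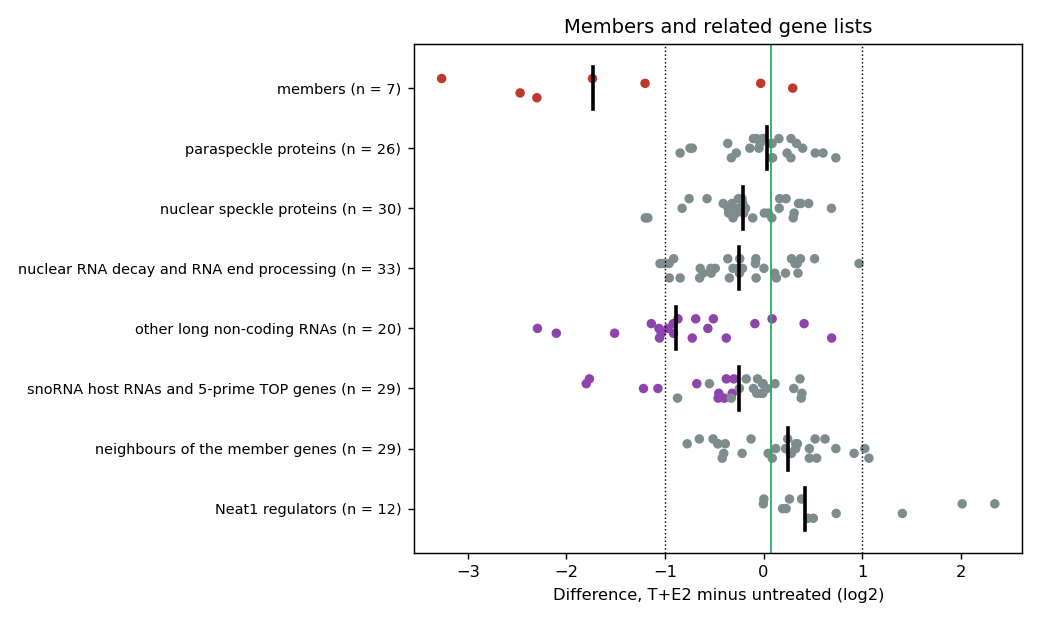
Log2 difference, T+E2 minus untreated, for the members and for the measured genes of each list (purple: long non-coding RNAs, grey: protein-coding). Black bars are medians, the green line is the median of all measured genes (0.07) and dotted lines mark 2-fold. The purple points lie mostly left of 0, and paraspeckle protein genes centre near 0.04.

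Of 12 nearest measured genes around the members, with Neat1 and Malat1 themselves left out, 6 differed in the same direction as their member. Of 29 measured neighbours in a wider list, 19 (65.5%) lay above 0, beside 55.9% of all measured genes, and the median was 0.25. Among them 2 (6.90%) passed 2-fold upward, near the 4.96% of all measured genes, and 0 downward, beside 4.01%. Frmd8, next to Neat1 on the side away from Malat1, had 517 in T+E2 cells and 335 in untreated cells (0.62). Ltbp3, the nearest measured gene on the other side of Malat1, stood at 0.34 with probe sets on opposite sides. Usp25, nearest to Mir99ahg, had 290 in T+E2 cells and 138 in untreated cells (1.07), and Cxadr, the nearest measured gene on its other side, stood at 0.52.

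Around Phxr4, Ccdc82 stood at -0.23 and Mtmr2 at -0.15. Ggcx and Capg, the nearest measured genes around Particl, stood at 0.09 and -0.48. Tug1 lay between Smtn (0.92) and Morc2a (0.12). Gas5 lay between Rc3h1 (0.73) and Cenpl (-0.51). Nrip1, a receptor corepressor gene in the list as a more distant neighbour of Mir99ahg, stood at 1.03.

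By size of difference, the genes most like Neat1 among 1645 with 2 or more probe sets, all measured on both arrays and on 1 side, were Zfp945 (-1.71), Cfp (-1.83) and Itm2a (-1.91). Those most like Malat1 were Ccdc84 (-1.21), Pex11a (-1.19) and Clk4 (-1.17). Likeness here is the gap in log2 difference over 2 arrays, at most 0.17, and carries no more than that.

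The cells carried mesenchymal transcripts on both arrays. Of 22 mesenchyme and UGM markers on the array, 16 were measured, among them Vim at 38406 in T+E2 cells and 35799 in untreated cells, while Hoxd13, Hoxa13, Fgf10 and Gli1 were under the floor. Epithelial markers summed to 7017 in T+E2 cells and 4888 in untreated cells over 3 measured of 21, mostly Sox9. Cdh1 among them had 190 in T+E2 cells and 41.4 in untreated cells, and the keratins and Epcam were under the floor. Endothelial markers (2 of 12 measured) summed to 1368 in T+E2 cells and 1136 in untreated cells, with Pecam1 and Cdh5 under the floor. Leukocyte markers (2 of 12) summed to 447 in T+E2 cells and 1135 in untreated cells, nearly all Lyz2, with Ptprc under the floor. Neural markers (2 of 10) summed to 2447 in T+E2 cells and 1350 in untreated cells, mostly Ncam1, with Sox10 under the floor. The part of these transcripts in the member differences was not tested.

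**Figure D5:**
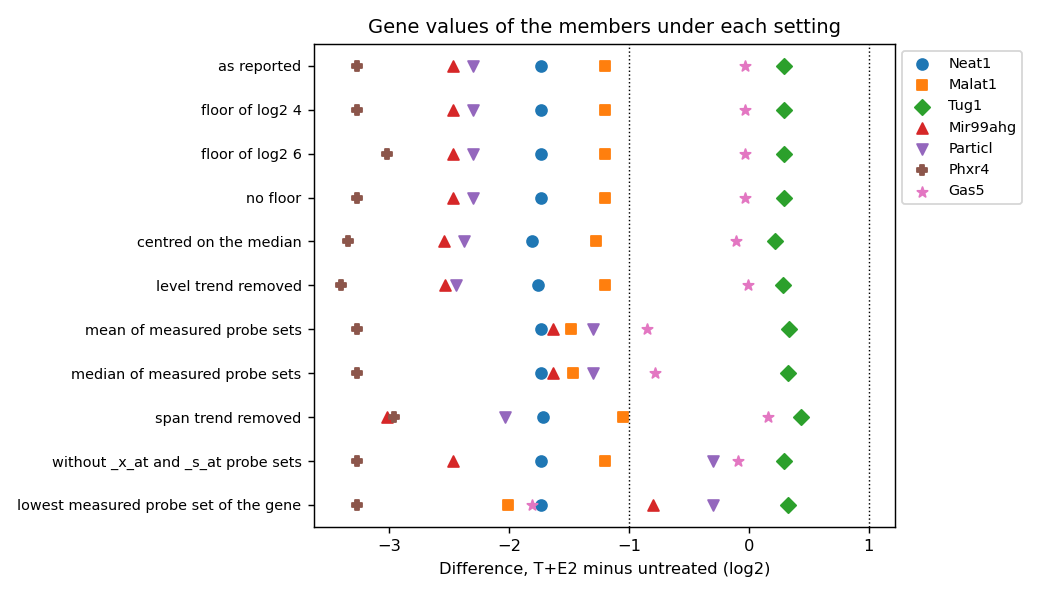
Gene value (log2 difference, T+E2 minus untreated) of each member as reported and under each of 10 other settings, with 2-fold dotted. Malat1 lies between -2.01 and -1.05, and Neat1 and Phxr4 have no second measured probe set to read. Particl, Mir99ahg and Gas5 cross the dotted 2-fold line on the low side with the probe set used.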

How the data were processed

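Affymetrix mouse expression arrays with 45101 probe sets measured total RNA, labelled as biotinylated cDNA with NuGEN kits, per the labels. The authors deposited an intensity for each probe set on a linear scale, made with GCRMA per the submitters' processing notes; its version and the genome build are not given in the sources used here. GCRMA corrects background by probe sequence, quantile-normalizes arrays and summarises probes, which makes a change shared by most genes invisible and collapses unexpressed probe sets to low values.

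Columns were assigned by the labels. The log2 of each intensity was taken, and values under log2 of 5 were raised to it before a difference was formed, so a fold against such a value is a bound. Probe sets that named several genes, or none, were left out of gene counts. Names came from the platform annotation (34945 probe sets with 1 gene, 932 with several, 9160 not listed, 64 controls), updated through the RefSeq table of GRCm38.p6 by gene ID, symbol or unique synonym; 18156 of 18161 genes matched. That table gave RNA class, span and neighbours. Trends on level and on log10 genomic span were removed with lowess (span 0.3).

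Members, lists and named genes were chosen with earlier results of these data known. Named genes were all members, up to 4 list members past 2-fold (or the 2 largest), nearest measured neighbours, and the 3 closest differences to Neat1 and to Malat1. Other genes are named as marker examples or as chosen after their values were seen. With 1 array per group no test was run, and precision is limited by how few arrays there are. The counting steps were run on simulated arrays with known added changes, which checks the code and says nothing of the precision of these values. Analyses used Python 3.11.15, pandas 2.3.3 and statsmodels 0.14.6.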

Additional observations from a re-analysis of the deposited data

How the results depend on the processing

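Malat1 lay between -2.01 and -1.05 over the 10 alternatives, none of which rested on its probe set at -0.29 alone. Neat1 (-1.81 to -1.71) and Phxr4 (-3.40 to -2.96) have 1 measured probe set each, so the alternatives on probe sets could not change them and say nothing of their stability. Tug1 stayed between 0.22 and 0.43. The choice of probe set decided 3 calls. Particl fell short of 2-fold, at -0.29 against the floor, without _x_at and _s_at probe sets and also with its lowest measured probe set, an alternative chosen after seeing the data. Under that same alternative Mir99ahg stood at -0.80 against the floor and Gas5 at -1.81, past 2-fold. With a trend on genomic span removed Gas5 turned to 0.16. The count of members at least 2-fold lower was 4 or 5 throughout, and that of members at least 2-fold higher was 0. The lowest measured probe set raised the count of lower genes to 688 (6.71% of genes), and removing the span trend left 304 higher genes. With no floor 6.57% of long non-coding RNAs were at least 2-fold lower, because many RNAs near background entered. Centring moved the median of all genes by -0.07, and no other setting moved it further. No paired analysis was possible because each group has 1 array, and for the same reason no replicate could be left out. Signal over background limits Particl, Mir99ahg and Phxr4 most, since their T+E2 intensities lie closest to the floor.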
